A study of Triticum aestivum with 18 samples.

Results

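Proteins that enter the endoplasmic reticulum (ER) leave it in vesicles with a COPII coat, whose assembly starts when the small GTPase SAR1 binds the ER membrane and recruits an inner coat of SEC23 and SEC24 and an outer coat of SEC13 and SEC31. Coatomer, the coat of COPI vesicles, carries escaped ER proteins and transport machinery back from the Golgi, and SNARE proteins and tethers let vesicles dock and fuse. In cereal grains the storage proteins are made on the ER before they are moved to protein bodies and vacuoles, and in leaves the same machinery supplies cell walls, membranes and vacuoles.

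The ER to Golgi transport genes described here were the loci of a wheat (Triticum aestivum) expression table whose GO annotation named ER to Golgi vesicle-mediated transport or the COPII vesicle coat, or whose description named SAR1, a SEC transport protein or coatomer. The rule matched 81 of 115478 loci, and 76 of them reached an FPKM of 1 or more in 3 or more libraries of grain or of leaf. Of the 76 loci, 72 passed in both tissues, 2 in leaf only and 2 in grain only. The 5 loci left out included a second coatomer beta locus on 3B, at 0.442 to 1.02 scaled FPKM in leaf. Values were FPKM (read fragments normalised for transcript length and for the size of the library), so levels of different genes can be compared per length, and "scaled FPKM" below is FPKM after scaling between the libraries of a fit.

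The study collected grains and flag leaves at the grain filling stage in 18 libraries, 3 for each of 6 groups. Grains were taken after shading of the spike together with removal of every leaf (shaded and defoliated), after cutting off 0.5 of the spike (partial removal), and from untreated, normally growing plants (control). Flag leaves were taken after cutting off the entire spike (whole removal), after partial removal, and from control plants. Shading came only together with leaf removal, so their effects cannot be told apart, and nothing in the labels ties the 3 libraries of a group to separate plants, so that p-values measure only how far these samples spread.

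FPKM sums ran from 409211 to 779076 per library, and read counts were not used here, so depth was unknown. A rough estimate relative to 1 control leaf library, from loci with FPKM under 0.1, gave 0.811 to 1.06. In the other libraries only 5.80 to 8.42% of the loci compared lay near the estimate. Leaf markers (RuBisCO small subunits and chlorophyll-binding proteins, 78 loci) took 0.379 to 1.73% of the FPKM sum in leaf and 0.000867 to 0.0112% in grain. Grain storage protein markers (gliadins and glutenins, 17 loci) took 0.0220 to 1.24% in grain and 0 to 0.0131% in leaf. Shaded grain library 2 stood apart, with 89.9% of its FPKM sum in loci without a gene name, and control grain library 1 had 55.4% there. Grain results are therefore also given without these libraries where they changed.

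By annotation the 76 loci held 21 coatomer loci (4 alpha, 1 beta, 6 beta', 5 delta and 5 gamma subunits), 1 SAR1 locus, 1 locus of SEC61 beta (a subunit of the channel through which new proteins enter the ER, matched by its description and no coat protein), 5 loci of Golgi SNAP receptors (SNAREs of the Golgi; 3 of member 1-1 and 2 of member 1-2) and 3 loci of MAG2, which in Arabidopsis is needed for seed storage proteins to leave the ER. The other 45 loci had no description and are known here by GO terms alone. Of these, 22 had COPII coat with zinc binding, 3 had COPII coat without it, 6 had COPII vesicle coating, 8 had a cytoplasmic location and no further term, and 6 were membrane proteins with hydrolase activity. SEC23 and SEC24 proteins carry a zinc finger, but the table does not give these names to the loci. The A, B and D genomes of wheat carry near-identical copies (homoeologs) between which reads can be misassigned, so the chromosome arm of a copy is uncertain.

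In normally growing plants, more of the transport genes were higher in grain than lower. Of the 76 loci, 29 were higher and 9 lower in control grain than in control leaf (limma, Benjamini-Hochberg adjusted p under 0.05), with a median log2 difference of 0.23, against 0.01 over all 49955 genes tested. The share of loci called, 50.0%, stood below the 70.8% of all genes tested, of which 35.2% were higher and 35.6% lower. Of the 72 loci that passed the filter in both tissues, 34 were called. The 2 loci that passed in leaf only and the 2 in grain only were all called, a difference that the filter favours. A difference of at least 2-fold was found in 9 of the 76 loci, against 43.5% of all genes tested. Summed over the 76 loci, scaled FPKM was 583, 554 and 564 in control grain and 412, 421 and 428 in control leaf, and the groups did not overlap. As deposited, without scaling, the sums were 423, 534 and 499.8 FPKM in control grain and 494, 511 and 511 in control leaf, which overlapped. In bulk tissue, fewer cells of a type and less RNA per cell cannot be told apart.

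That split rested on the scaling between tissues. On unscaled FPKM the median of all genes was -0.33, and 8 loci were called higher and 22 lower. The shares of all genes given above are those on scaled FPKM, and the shares on unscaled FPKM are not given here. The median of the transport genes was then -0.10, above that of all genes, so the statements on higher levels in grain are relative to the other genes. Control leaf libraries 2 and 3 held grain markers at 0.00913 and 0.0131% of FPKM. Without library 2, 27 loci were higher and 9 lower, and without library 3, 30 were higher and 8 lower, over the same tested genes. Without control grain library 1, 25 were higher and 7 lower.

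**Figure D1:**
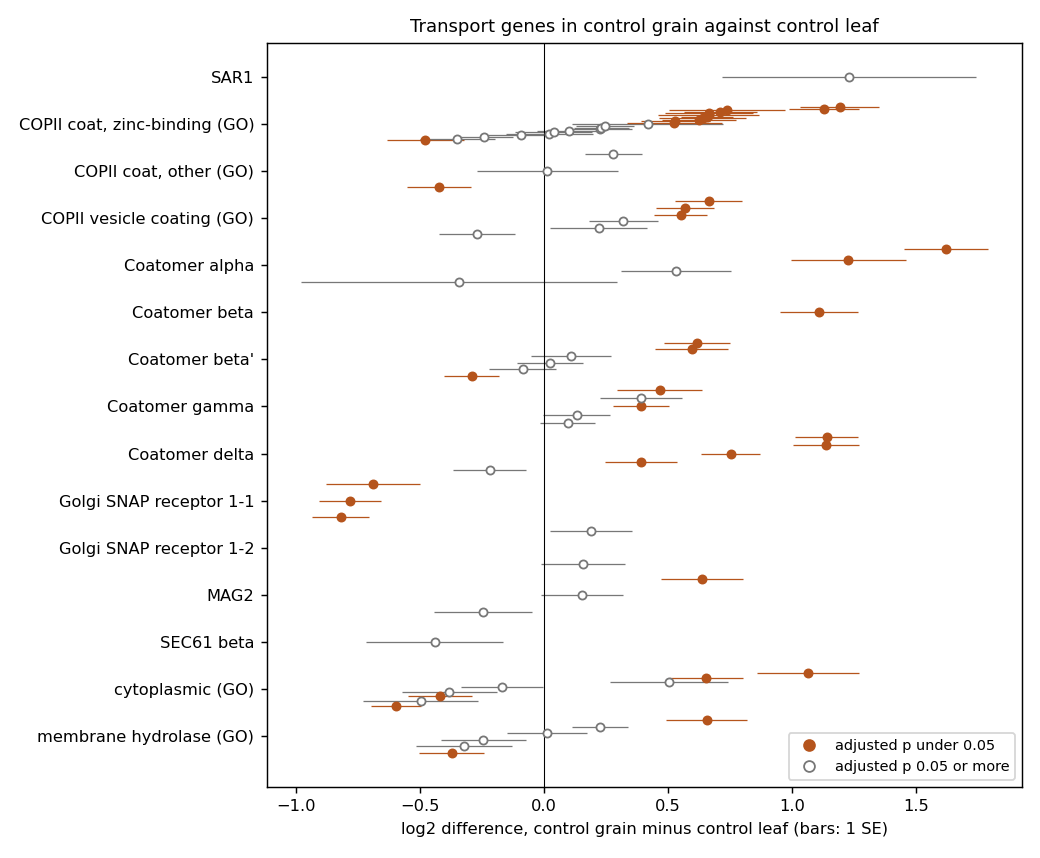
Log2 difference of control grain minus control leaf for the 76 transport loci, 1 point per locus in rows by annotation; bars are 1 SE, and filled points had an adjusted p under 0.05 (limma, 3 libraries per group). Coatomer delta, beta and alpha loci lie to the right, up to 1.62, and the 3 loci of Golgi SNAP receptor 1-1 lie to the left, down to -0.82.

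Coatomer, the largest described group, had 11 loci higher and 1 lower in grain of 21, with a median log2 difference of 0.39. Its delta subunit stood out by level. The delta loci of 1AL, 1BL and 1DL were the highest coatomer loci in both tissues, and 4 of the 5 delta loci were higher in control grain. The sum of the delta loci was 103, 97.7 and 101 scaled FPKM in control grain and 50.7, 49.1 and 51.3 in control leaf, and no grain library came near a leaf library. The 1DL copy (MSTRG.8195) had 33.0, 30.0 and 29.8 in control grain, against 14.0, 13.8 and 12.6 in control leaf (log2 1.14, SE 0.13, limma adjusted p = 0.000156). The 1BL copy (MSTRG.4437) had 36.1, 35.3 and 38.4 in control grain, against 15.5, 15.4 and 17.4 in control leaf (log2 1.14, SE 0.13, limma adjusted p = 0.000196). Both copies rose clear of the spread within tissues. The 1AL copy (MSTRG.1120) was higher in grain by a smaller amount, 28.1 ± 0.489 against 16.3 ± 0.542 (SD, n = 3; log2 0.75, limma adjusted p = 0.00104).

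The other large coatomer differences were in beta and alpha. Coatomer beta (MSTRG.29933, 3B) had 13.7, 14.3 and 14.0 in control grain, against 6.49, 6.96 and 4.59 in control leaf (log2 1.11, SE 0.16, limma adjusted p = 0.000558). Coatomer alpha MSTRG.77488, on an unplaced scaffold, had the largest difference of all 76 loci, with 12.5, 17.1 and 17.0 in control grain and 4.83, 4.68 and 3.56 in control leaf (log2 1.62, SE 0.17, limma adjusted p = 0.000118). The groups were apart for both genes. A second alpha locus (MSTRG.39430, 4BS) was also higher in grain, 14.2 ± 4.53 against 5.37 ± 1.10 (log2 1.23, limma adjusted p = 0.00242). Of the other alpha loci, that of 5AL had a log2 difference of 0.53 (limma adjusted p = 0.0662) and was not called. That of 4BL (MSTRG.38634) had 13.7, 1.55 and 12.3 in control grain, against 9.998, 10.2 and 7.22 in control leaf (log2 -0.34, limma adjusted p = 0.650). Only control grain library 2 lay below the leaf libraries, and the other 2 lay above them.

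Gamma and beta' loci had differences of under 1 on the log2 scale. Of 5 gamma loci 2 were higher in grain, with log2 differences of 0.39 (1AL) and 0.47 (4AS), and all 5 differences were positive. Of 6 beta' loci, those of 7AS and 7DS were higher in grain by log2 0.62 and 0.60, and that of 6DS (MSTRG.63455) was lower, at 4.97 ± 0.365 in control grain and 6.3 ± 0.353 in control leaf (log2 -0.29, limma adjusted p = 0.0489). The median log2 difference was 0.88 for alpha, 0.75 for delta, 0.39 for gamma and 0.07 for beta'. Loci of 1 subunit spread widely, at -0.34 to 1.62 in alpha, and differences between subunits were not tested.

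Among the loci annotated as zinc-binding COPII coat, 11 of 22 were higher in grain and 1 was lower, with a median log2 difference of 0.47. These 22 include the 2 loci that passed the filter in grain only, MSTRG.35940 and MSTRG.76912. Both were called higher in grain, a direction that the filter favours. The locus of 5DL (MSTRG.51749) had 9.78, 9.73 and 8.38 in control grain, against 4.08, 4.07 and 3.01 in control leaf (log2 1.13, SE 0.14, limma adjusted p = 0.000283). Of the other zinc-binding loci on the long arms of the group 5 chromosomes, MSTRG.48980 (5BL), MSTRG.44930 (5AL) and MSTRG.44912 (5AL) were higher by log2 0.71, 0.66 and 0.53, and MSTRG.49209 (5BL), at log2 0.23, was not called (limma adjusted p = 0.0993). Which of these are copies of each other is not given in the table. The 1 lower locus was on 5AS (MSTRG.47259), at 5.85 ± 0.862 in control grain and 8.55 ± 1.25 in control leaf (log2 -0.48, limma adjusted p = 0.0264). Of the 6 COPII vesicle coating loci 3 were higher, by log2 0.55 to 0.66, and of the 3 other COPII coat loci 1 was lower (MSTRG.37619, 4BL, log2 -0.42).

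The Golgi SNAP receptor 1-1 went the other way. All 3 of its loci were lower in grain, and their sum was 9.55, 10.4 and 9.95 scaled FPKM in control grain, against 18.5, 17.6 and 20.6 in control leaf. The 5DL copy (MSTRG.51736) had 4.33, 3.52 and 4.17 in control grain, against 7.97, 7.71 and 7.77 in control leaf (log2 -0.82, SE 0.12, limma adjusted p = 0.000526). The copies of 5AL (MSTRG.43772) and 5BL (MSTRG.49081) were lower by log2 differences of -0.78 and -0.69, and no grain library reached a leaf library in any copy. The 2 loci of member 1-2 had log2 differences of 0.16 and 0.19 and were not called. Of the MAG2 loci, that of 6DL (MSTRG.61734) was higher in grain, at 1.90 ± 0.293 against 0.876 ± 0.352 (log2 0.64, limma adjusted p = 0.0105), and the other 2 were not called.

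SAR1, the GTPase that starts the COPII coat, had the highest mean of the 76 loci in control grain, at 46.7, 50.7 and 54.8 scaled FPKM. Control leaf had 7.94, 31.8 and 35.3, all below grain but more than 4-fold apart among themselves. The log2 difference was 1.23 (SE 0.51) and did not pass the threshold (limma adjusted p = 0.0649). SEC61 beta had 20.3, 21.0 and 24.4 in control grain and 25.9, 22.1 and 46.7 in control leaf, which overlapped (log2 -0.44, limma adjusted p = 0.192).

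The same comparison was made in the 6 libraries of partial removal, which share no library with the controls but share the tissues and the scaling method. The median log2 difference there was 0.14 for the transport genes, against 0.05 over all genes, closer together than the 0.23 and 0.01 of the controls. Of the loci, 27 of 75 were higher and 13 lower in grain, against 74.3% of all genes called, 38.7% higher and 35.5% lower. Of the 29 loci higher in control grain, 21 were again called higher and 0 lower, and of the 8 loci lower in control grain and tested, 8 were again lower. The share of all genes called again in this way was not computed, so whether these counts are particular to the transport genes was not tested. The 1DL coatomer delta locus (MSTRG.8195) had 29.1 ± 1.5 in grain and 16.6 ± 2.05 in leaf after partial removal (log2 0.78, limma adjusted p = 0.00100). The Golgi SNAP receptor 1-1 loci had log2 differences of -1.39 (5DL), -1.09 (5AL) and -1.06 (5BL). SAR1 had 21.7 ± 4.53 in grain and 19.0 ± 13.4 in leaf after partial removal (log2 0.39, limma adjusted p = 0.460), and its groups overlapped.

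Other genes of the secretory pathway, listed by their descriptions, gave a mixed picture between the tissues, to be read beside the 35.2% of all genes that were higher and the 35.6% that were lower in control grain. ARF GTPases start the COPI and clathrin coats. Of 13 loci of ARF GTPases and of their regulators, 10 were higher in grain and 0 lower. The ARF locus MSTRG.4241 (1BL) had 284 ± 28.3 in control grain and 95.9 ± 4.90 in control leaf (log2 1.55, limma adjusted p = 0.00157). Of 21 genes of protein entry and glycosylation at the ER, 16 were higher and 1 lower, among them the signal recognition particle subunits SRP68 on 5AL (log2 1.62) and SRP9 on 7BS (log2 2.08). All 3 calreticulin-3 loci, lectin chaperones of the ER, were lower in grain (median log2 -3.41). Of 15 other SNAREs 5 were higher and 2 lower, the higher ones including syntaxin-81, an ER SNARE, on 2BL (log2 1.02) and 2DL (log2 1.46). Clathrin and its adaptors had 6 higher and 3 lower of 20, vacuolar sorting 7 and 5 of 24, the exocyst 4 and 2 of 7, and RAB GTPases 1 and 4 of 9.

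**Figure D2:**
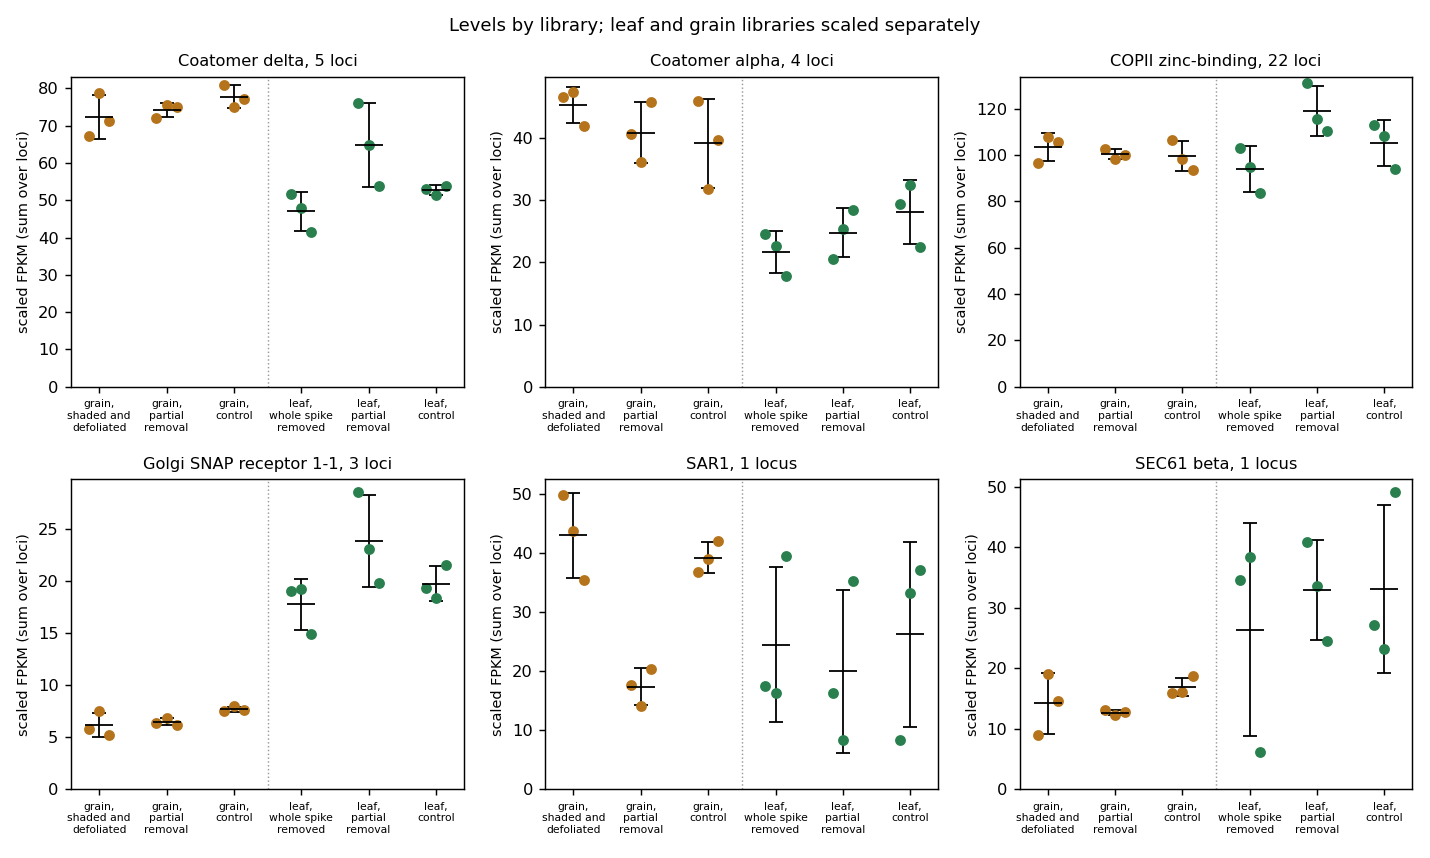
Scaled FPKM by library for 6 groups of transport genes (vertical axes, sums over the loci named in each panel) in the 3 grain groups on the left and the 3 leaf groups on the right; points are libraries, lines the mean and SD of 3. Leaf and grain were scaled separately here, so heights are to be compared within a tissue; SAR1 in grain after partial removal sits at 14.1 to 20.3, below the other grain groups, at 35.4 to 49.9.

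In grain, the source and sink treatments gave 1 call among the transport genes, in SAR1. Between shaded and defoliated grain and control grain, 0 of 74 tested loci were called by limma, against 1.82% of all 45784 genes tested (3 loci had an unadjusted p under 0.05). Between partial removal and control, 0 of 74 were called, against 0.0284% of all genes (3 with an unadjusted p under 0.05). Between shaded and defoliated grain and partial removal, 1 of 74 was called, against 0.190% of all genes (6 with an unadjusted p under 0.05). The median log2 differences in these comparisons were -0.02, -0.03 and 0.02.

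SAR1 (MSTRG.54444, 5DS) was the locus called in grain. It had 49.9, 43.7 and 35.4 scaled FPKM in shaded and defoliated grain, 17.6, 14.1 and 20.3 after partial removal, and 36.8, 38.9 and 41.9 in control grain. On scaled FPKM all 3 libraries of partial removal lay below all 6 others. Without scaling, shaded and defoliated grain had 61.3, 9.95 and 44.9 FPKM and partial removal had 22.4, 19.8 and 26.0. Control grain had 33.9, 48.8 and 48.6. Shaded library 2, with a scaling factor of 0.228, was then the lowest of all, and its group overlapped with partial removal. On scaled FPKM shaded and defoliated grain was higher than grain of partial removal by log2 1.26 (SE 0.17, limma adjusted p = 0.0403). Partial removal against control had a log2 difference of -1.14 (SE 0.17) with an adjusted p of 0.130 in limma, not called (unadjusted p = 0.000119), and shaded and defoliated against control had 0.12 (limma adjusted p = 0.788). The 2 contrasts with partial removal share its libraries.

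The call on SAR1 was close to the threshold. Without shaded library 2 the log2 difference was 1.25, with a limma adjusted p of 0.121, and it was kept when control library 3 was left out (adjusted p = 0.0477) but not when any other grain library was. On unscaled FPKM, where the median of all genes was -0.49, it was 0.42 (limma adjusted p = 0.670). Grain markers took 0.0220 to 0.442% of FPKM in shaded and defoliated grain, 0.505 to 0.644% after partial removal and 1.08 to 1.24% in control grain, and their part in the SAR1 difference was not tested.

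The summed levels of the coats lay close together across the grain groups. Coatomer summed to 206 ± 13.6 scaled FPKM in shaded and defoliated grain, 198 ± 2.57 after partial removal and 202 ± 15.8 in control grain (SD, n = 3 each). The zinc-binding COPII loci summed to 103 ± 6.0, 100.3 ± 2.14 and 99.4 ± 6.48 in the same order of groups. These sums differed by less than the spread between libraries. Golgi SNAP receptor 1-1 summed to 5.76, 7.51 and 5.21 in shaded and defoliated grain, 6.35, 6.85 and 6.20 after partial removal, and 7.52, 7.98 and 7.61 in control grain, so that the controls lay just above all treated libraries, although none of its 3 loci was called. Without scaling the sums were 7.09, 1.71 and 6.61 FPKM in shaded and defoliated grain, 8.12, 9.62 and 7.92 after partial removal, and 6.94, 10.01 and 8.82 in control grain, and these groups overlapped. SEC61 beta had 8.89, 19.1 and 14.5 in shaded and defoliated grain, 13.1, 12.2 and 12.7 after partial removal, and 16, 16.1 and 18.6 in control grain, also without a call.

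In flag leaves, 3 of 74 transport loci were called between whole removal and control (limma), 2 higher and 1 lower, against 20.3% of all 48696 genes tested, with 10.8% higher and 9.50% lower. An unadjusted p under 0.05 was found for 12 loci, and the median log2 difference was -0.04. Partial removal gave 0 of 74 calls against control, with 1.63% of all genes called (5 loci with an unadjusted p under 0.05). Whole removal against partial removal gave 2 of 74 calls, both lower after whole removal, against 16.5% of all genes called and 7.95% lower (19 loci with an unadjusted p under 0.05). On unscaled FPKM, where the median of all genes was -0.15, whole removal against control gave 1 higher and 7 lower, and whole against partial removal gave 1 higher and 0 lower. The shares of all genes given above are those on scaled FPKM. The count against control was 7 without control leaf library 3, and 1 without control library 2, without whole-removal library 1 or without whole-removal library 2.

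**Figure D3:**
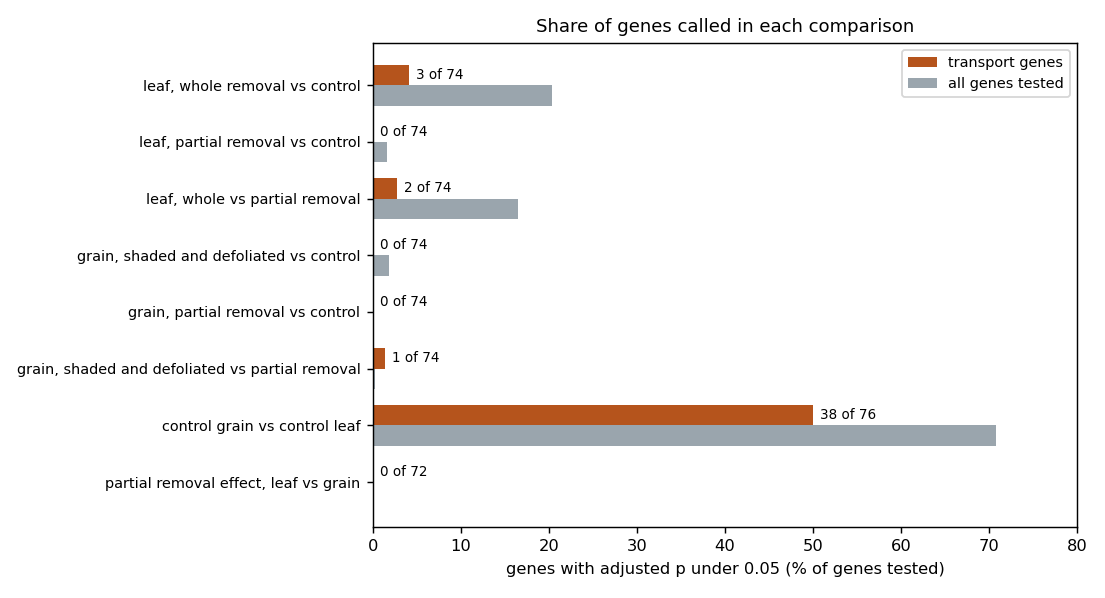
Share of genes with an adjusted p under 0.05 (horizontal axis, % of genes tested) among the transport genes and among all genes tested, for the 8 comparisons; numbers beside the bars are transport loci called of those tested. The transport genes lie below all genes in leaf after whole removal (3 of 74 against 20.3%) and between the tissues (38 of 76 against 70.8%).

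The clearest leaf change was in a locus known only by GO terms. MSTRG.14988 (2BL, cytoplasmic) had 7.19, 6.31 and 6.88 scaled FPKM after whole removal, 5.16, 3.86 and 4.93 after partial removal, and 3.36, 2.43 and 3.43 in control leaf. On scaled FPKM the 3 groups did not overlap, with partial removal between the others. Without scaling, partial removal overlapped with control, and whole removal still lay above both. Whole removal was higher than control by log2 0.94 (SE 0.15, limma adjusted p = 0.00330). Whole against partial removal (log2 0.47, limma adjusted p = 0.0604) and partial removal against control (log2 0.47, limma adjusted p = 0.224) were not called. The other 2 called loci had low levels, below the mean of 5 scaled FPKM required for naming, and are given because the count is small: MSTRG.11016 (2AL, COPII coat) had 2.09 ± 0.133 after whole removal and 1.37 ± 0.0705 in control leaf (log2 0.38, limma adjusted p = 0.0376), and MSTRG.54381 (5DS, zinc-binding COPII coat) had 0.890 ± 0.181 after whole removal and 1.98 ± 0.604 in control leaf (log2 -0.64, limma adjusted p = 0.0311).

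The loci called lower after whole than after partial removal were a zinc-binding COPII locus and a coatomer delta locus. MSTRG.43194 (4DS, zinc-binding) had 7.10, 5.51 and 5.99 after whole removal, 11.1, 9.24 and 10.6 after partial removal, and 9.52, 9.12 and 6.68 in control leaf. Whole and partial removal did not overlap, and the controls spread between them (whole against partial, log2 -0.66, SE 0.16, limma adjusted p = 0.0254). The 1DL coatomer delta locus (MSTRG.8195) had 13.6, 10.9 and 11.3 after whole removal, 20.1, 17.3 and 15.2 after partial removal, and 14.7, 14.4 and 13.3 in control leaf (whole against partial, log2 -0.51, SE 0.15, limma adjusted p = 0.0466). On scaled FPKM its 3 libraries of partial removal were the highest of the 9. Without scaling they had 19.1, 16.7 and 12.7 FPKM and overlapped with both other groups. Those had 16.8, 16.7 and 15.1 in control leaf and 13.6, 10.2 and 11.8 after whole removal. Each of these calls was lost when any of several libraries was left out: for MSTRG.43194, whole-removal library 2 or 3 or any library of partial removal (limma adjusted p = 0.0511 to 0.0949), and for MSTRG.8195, whole-removal library 2 or 3, partial-removal library 1 or 2 or control library 1 or 2 (limma adjusted p = 0.0655 to 0.149).

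The zinc-binding COPII loci leaned the same way on scaled FPKM. In whole against partial removal all 20 tested loci had a negative log2 difference, with a median of -0.32, and in 12 of them every library of whole removal lay below every library of partial removal, against 19.7% of all genes. Only MSTRG.43194 passed the test. In partial removal against control 15 of 20 differences were positive (median 0.16), and in whole removal against control 13 of 20 were negative (median -0.19). The untested loci were MSTRG.35940 and MSTRG.76912. MSTRG.35940 had 0.566, 0.0396 and 4.58 scaled FPKM after whole removal and 0.454, 0.579 and 0.580 after partial removal. MSTRG.76912 had 0.447, 0.108 and 0.0129 after whole removal and 0.497, 0.476 and 0.706 after partial removal. With both included, the sum over 22 loci was 103, 94.9 and 83.4 scaled FPKM after whole removal, 131, 115.5 and 110 after partial removal, and 113, 108 and 93.9 in control leaf. The libraries of partial removal lay above those of whole removal, and the controls overlapped with both. Without scaling these groups overlapped, at 103, 88.7 and 87.5 FPKM after whole removal, 125, 112 and 92.5 after partial removal, and 129, 126 and 107 in control leaf. Of the 20 differences of whole against partial removal, 15 were then negative and 5 positive (median -0.24), and 5 loci had groups apart. The mean was highest after partial removal in 14 of 20 loci, against 36 of all 74 transport loci. The shares of all genes were not computed for the unscaled counts or for the group with the highest mean. Whether this lean is particular to the zinc-binding loci was not tested. These loci are related copies and not independent of each other.

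**Figure D4:**
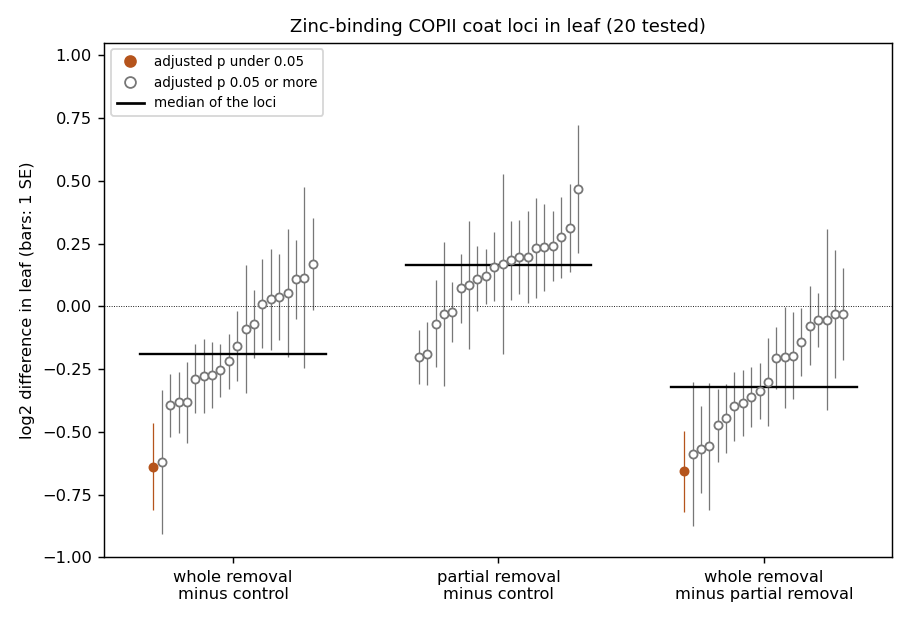
Log2 differences of the 20 zinc-binding COPII coat loci tested in leaf (vertical axis; bars are 1 SE, the line is the median) for whole removal minus control, partial removal minus control, and whole minus partial removal; filled points had an adjusted p under 0.05 (limma). The medians are -0.19, 0.16 and -0.32, and all 20 differences of whole minus partial removal lie below 0 on this scale, against 15 of 20 without scaling.

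The subunits of coatomer were ordered differently across the leaf groups, with no call against control. The delta loci summed to 51.8, 48.0 and 41.4 scaled FPKM after whole removal, 76.1, 64.8 and 53.7 after partial removal, and 53.1, 51.3 and 53.9 in control leaf. On this scale all 5 had negative differences of whole against partial removal (median log2 -0.36). Without scaling the delta sums of these 2 groups overlapped, at 51.9, 44.9 and 43.4 FPKM after whole removal and 72.3, 62.9 and 44.9 after partial removal. The 6 beta' loci summed to 54.6, 53.3 and 50.5 scaled FPKM after whole removal, 57.9, 48.1 and 44.0 after partial removal, and 49.2, 45.1 and 39.2 in control leaf. All 6 were positive in whole removal against control (median log2 0.21), none called. The libraries of whole removal lay above those of control in this sum, but without scaling they overlapped, at 54.7, 49.8 and 52.9 FPKM after whole removal and 56.4, 52.4 and 44.5 in control leaf. The gamma loci summed to 37.5 ± 5.52 after whole removal, 44.9 ± 3.71 after partial removal and 39.1 ± 4.51 in control leaf, which overlapped. Golgi SNAP receptor 1-1 summed to 17.8 ± 2.46 after whole removal, 23.8 ± 4.42 after partial removal and 19.8 ± 1.66 in control leaf, also without a call.

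Partial removal was the treatment given to both tissues, and its effect in leaf was set against its effect in grain in 12 libraries. Of 72 loci tested, 0 were called by limma, against 0.0852% of all genes (7 loci had an unadjusted p under 0.05), and the median was 0.14, against 0.00 over all genes. SAR1 had 0.81 (SE 0.76, limma adjusted p = 0.683), since its leaf libraries spread widely: 17.4, 16.3 and 39.6 scaled FPKM after whole removal, 16.3, 8.26 and 35.2 after partial removal, and 8.30, 33.2 and 37.0 in control leaf. High and low SAR1 libraries occurred in every leaf group. SEC61 beta likewise had 34.6, 38.3 and 6.21 after whole removal, 40.8, 33.6 and 24.4 after partial removal, and 27.1, 23.1 and 49.0 in control leaf.

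The ratio of the highest to the lowest of the 9 libraries of a tissue had a median of 1.51 in grain and 1.81 in leaf, and it was above 3 in 2 of 74 loci in grain and in 10 of 74 in leaf. Over all genes tested with values above 0 in all 9 libraries, the median ratio was 1.93 in grain and 2.41 in leaf, also larger in leaf. It was above 3 in 21.2% of these genes in grain and in 35.4% in leaf, larger shares than among the transport loci. Several of the ratios above 3 among the transport loci came from a drop in a single library of an alpha coatomer locus. In grain, MSTRG.38634 (4BL) had 1.19 in control library 2 and 7.60 to 10.8 in the 8 other libraries. In leaf, MSTRG.77488 had 0.0542 in whole-removal library 3 and 3.74 to 5.05 in the others, MSTRG.44462 (5AL) had 0.685 in partial-removal library 1 and 5.10 to 10.1 in the others, and MSTRG.39430 had 1.15 in whole-removal library 1 and 4.38 to 6.75 in the others. The sums over the 4 alpha loci ran from 17.8 to 32.5 in leaf and from 31.7 to 47.4 in grain. Whether reads were assigned to other loci in these libraries was not tested.

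The shares of the sub-genome copies of coatomer delta lay apart between the tissues. Within the copies of chromosome group 1L, the A copy held 30.8 ± 0.854% in shaded and defoliated grain, 30.8 ± 1.18% after partial removal and 29.4 ± 0.560% in control grain. In leaf it held 38.4 ± 0.782% after whole removal, 36.2 ± 0.858% after partial removal and 35.5 ± 0.761% in control leaf (SD, n = 3). Every leaf library had a larger A share than every grain library. The D copy of the beta' trio on 6S had group means of 24.9 to 27.2% in grain and 28.1 to 29.0% in leaf. Its single libraries overlapped, with 26.7% in leaf whole-removal library 3 and 27.5% in grain partial-removal library 1. In Golgi SNAP receptor 1-1 the A copy was the lowest of the 3 in every group, at 15.1 to 18.0%. In MAG2 the A copy held 46.4, 45.1 and 37.7% in the 3 grain groups in the order above and 54.7, 50.1 and 55.4% in the 3 leaf groups, with SDs of up to 9.38%. These shares are descriptions, with no test.

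**Figure D5:**
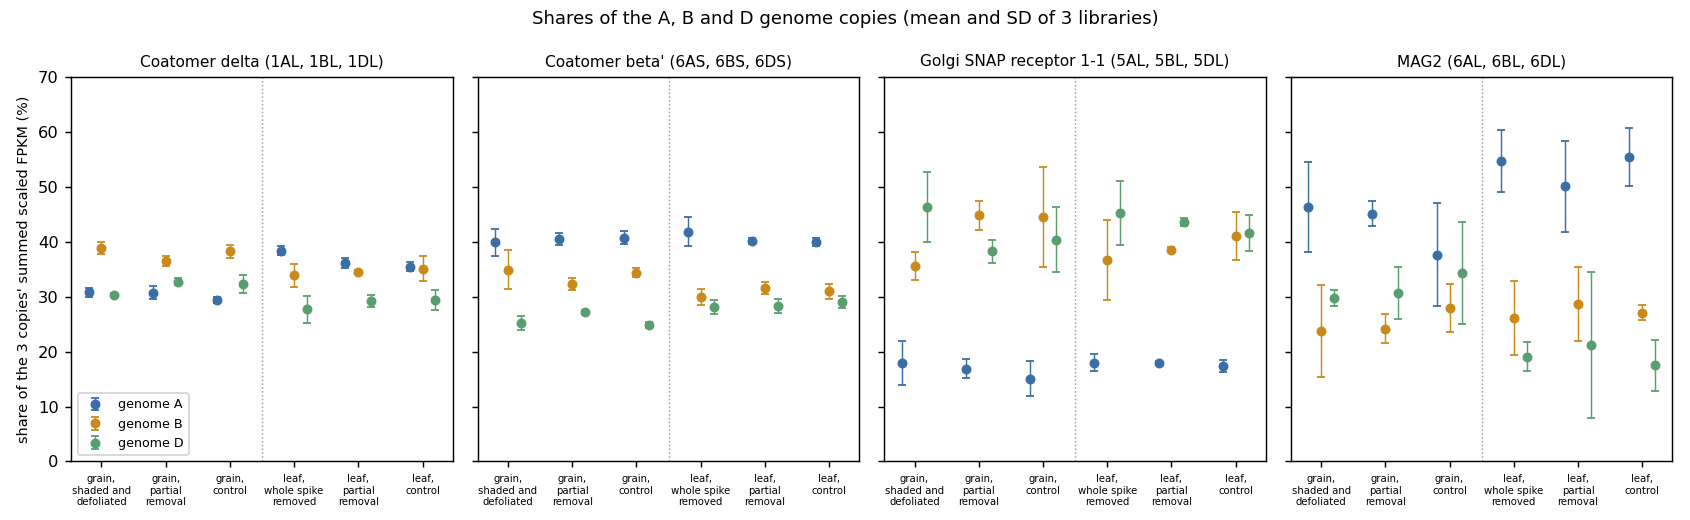
Share of the A, B and D genome copies in the summed scaled FPKM of the 3 copies (vertical axis, %), for 4 sets of copies in the 3 grain groups on the left and the 3 leaf groups on the right; points are means and bars SDs of 3 libraries. The A copy of coatomer delta lies at 29.4 to 30.8% in grain and 35.5 to 38.4% in leaf.

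Among the other secretory genes, whole removal changed leaf levels of a few. The 3 loci of AGD5, a GTPase-activating protein of ARF, were lower after whole removal than in control leaf, with log2 differences of -0.88 (2AS), -0.69 (2BS) and -0.74 (2DS), and lower than after partial removal with -0.96, -0.65 and -0.72 (limma adjusted p = 0.0139 to 0.0278 in these 6 tests). The 2AS locus had 8.43 ± 2.88 scaled FPKM after whole removal, 16.7 ± 1.19 after partial removal and 15.8 ± 1.86 in control leaf. In control plants the same loci were higher in grain than in leaf by log2 0.84, 1.06 and 0.77. The vesicle SNARE VAMP714 (7BL) was lower after whole removal than in control leaf (log2 -0.72, limma adjusted p = 0.0227). These counts stand beside the 10.8% of all genes higher and 9.50% lower in that comparison. Of 24 genes of protein entry at the ER 5 were higher after whole removal and 0 lower, the higher ones being the signal recognition particle loci SRP9 on 7AS, 7BS and 7DS, SRP14 on 2DL and SRP19 on 7BL, by log2 0.78 to 0.90.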

How the data were processed

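Poly(A) RNA of grains and flag leaves was sequenced as read pairs, per the labels. The authors deposited FPKM per locus, and the submitters' processing notes name HISAT, StringTie and edgeR without versions or roles. The genome build, strand setting and filters are not given in the sources used here. Loci are assembled identifiers, and chromosome arms come from the TGACv1 gene names. Positions and sequences were not analysed here.

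The 4 fits (9 leaf, 9 grain, 6 control, and 12 control and partial-removal libraries) and the added fit of the 6 partial-removal libraries used limma 3.58.1 in R 4.3.3. Genes entered a fit with an FPKM of 1 or more in 3 or more of its libraries (in each tissue for the 12-library fit). Libraries were scaled by median ratios to geometric means, over tested genes above 0 in all libraries of the fit. The model had a mean for each group on log2(scaled FPKM + 1), with trended moderated variances, and p-values were adjusted by Benjamini-Hochberg over all tested genes. The pseudocount makes fold changes of low genes smaller. Log2 values are group differences on that scale, with the moderated SE. The steps were tested on simulated data.

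Depth was unknown, so precision rests on the spread of 3 libraries. Named loci were those called with a higher group mean of at least 5 scaled FPKM, up to 12 in each direction, and the highest locus of each role list. Loci given outside that rule are individual values chosen after they were seen. The loci, the lists, the finer classes and the naming rule were chosen with earlier results of these data known. The list of RAB GTPases had accidental matches, and with them 7 were higher and 7 lower of 19 in grain.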

Additional observations from a re-analysis of the deposited data

How the results depend on the processing

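Without scaling, 8 loci were called in leaf between whole removal and control, 1 (lower) between partial removal and control, 1 between whole and partial removal, 0 in grain between shaded and defoliated and partial removal, and 2 for the effect of partial removal set between tissues. Quantile normalization gave 5 and the fit without a filter 1 for whole removal against control in leaf, and without the filter SAR1 in grain was not called (0). The shares of all genes in these settings are not given here. Leaving out 1 library gave 1 to 7 calls for whole removal against control in leaf, 0 to 5 for whole against partial removal, 0 to 1 for shaded and defoliated grain against partial removal, and 22 to 36 between tissues. Over all genes these calls numbered 5828 to 9760, 4117 to 9682, 21 to 127 and 23539 to 28495, in the same order. The step gave 0 transport loci in the other 4 comparisons. Calls over all genes there were 186 to 850 in leaf (partial removal against control). In grain they were 342 to 618 (shaded and defoliated against control) and 8 to 42 (partial removal against control). For the effect of partial removal between tissues they were 9 to 98. The tissue count was 24 (10 higher, 14 lower) without control leaf library 1 and 22 (10 and 12) without library 2, because the filter of 3 libraries then drops leaf genes by construction. With the tested genes of all 6 libraries kept, an alternative added after seeing the data, it was 30 to 38, with 25 to 30 higher and 5 to 9 lower. For the other changes the cause was not tested. Of 21 calls followed on 20 loci, 8 were kept in every setting and 0 reversed.

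Whether library numbers pair the samples could not be settled with 3 libraries per group. Deviations from the group mean correlated, between same-numbered libraries, at -0.166 to 0.117 in leaf and -0.368 to 0.0954 in grain. Between differently numbered libraries these correlations reached 0.195 in leaf and 0.343 in grain. With the replicate block, whole removal against control in leaf gave 1 call and shaded and defoliated grain against partial removal 0. The tissue count stayed at 38. Depth per library is unknown, so low loci have no stated detection limit.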
